A study of Arabidopsis thaliana with 30 samples.

Results

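When the tip of an Arabidopsis thaliana root is cut away, the tissue left at the cut face can form a new tip. The stump collected 22 h after excision was compared here with the stump collected 5 h after excision, on 5 and 4 arrays, which are 9 of the 30 Affymetrix ATH1 arrays of the series. Members were taken by the collection time printed in each array's title. Both groups are the accession Col-0 with no transgene or treatment named, and seedlings 4 days post germination (dpg) had the distal 130 µm of the root cut off. At the stated hour, the 70 µm next to the cut was collected. Each array holds a pool of at least 25 pieces, amplified from 50 ng of RNA by the two-cycle protocol. The protocol gives these lengths in µm and the titles print mm. It states 4 replicates, where the 22 h group has 5 arrays. The stumps at 0 h and 13 h (4 arrays each), intact tips at 4 dpg (4 arrays) and 8 dpg (3 arrays), a stump labelled 8 dpg (3 arrays) and a wounded section labelled 270 to 340 from the tip (3 arrays), labelled as a non-regenerating control, serve as context. The section's title says that it was harvested immediately and gives no age. Nothing in the labels states that replicates were grown or sown apart, and p-values therefore cover only the spread between arrays, which may be technical.

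A root grows from a meristem at its tip, where cells divide around a small stem cell niche and then elongate and differentiate farther up. Removing the tip takes away the niche and the root cap. Wounded plant cells switch on stress and cell wall genes early, while re-entry into division calls for the mitotic kinases and the motor proteins that build the spindle and the new cell wall. In bulk tissue, fewer cells of a type and less RNA per cell cannot be told apart.

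Values are the authors' MAS5 signals, a linear intensity per probe set. The median signal of an array was 77.0 to 89.1 at 5 h and 82.0 to 122.6 at 22 h, so signals below about 100 lie among the dimmer probe sets. Within a group, Pearson's r between the log2 values of 2 arrays ran from 0.918 to 0.945 at 5 h and from 0.821 to 0.934 at 22 h, so the 22 h arrays were less alike. Differences are 22 h minus 5 h on the log2(signal + 32) scale with the standard error (SE) of the fit, where 1 is a factor of 2 in signal + 32, and they understate the change of dim genes. A probe set was called when its adjusted p was under 0.05 in limma with Benjamini-Hochberg adjustment over 22746 probe sets and the difference was at least 1. All adjusted p-values below come from that fit of all 30 arrays, with n = 4 at 5 h and n = 5 at 22 h.

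At 22 h, 265 probe sets had risen and 80 had fallen, 345 in all or 1.52% of the 22746 tested (1.17% higher and 0.352% lower). The largest difference upward was 3.85 and the largest downward was -3.30. Of the called probe sets, 184 carry exactly 1 gene name, 141 of them higher and 43 lower. The 22 h and 5 h arrays did not overlap for 251 of the 345, against 4.53% of all probe sets. The share of called probe sets that were higher was 76.8%, and it was 59.4% after quantile normalization and 45.5% after centring each array on its median. The median difference of all probe sets was 0.094, -0.019 and -0.101 under these scalings in turn. On the deposited scale 13579 of the 22746 were positive. That share, 1.17% higher and 0.352% lower are the background for the list counts below. Bright probe sets leaned downward: among the 1546 with a mean log2(signal + 32) of 10 and over, the median difference was -0.26 and 23.2% were positive, against 66.4% of the 12164 with a mean under 7. The count of 345 fell to 204 without the 5 h array 4, to 218 without the 5 h array 3 and to 116 when only these 9 arrays were fitted.

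**Figure D1:**
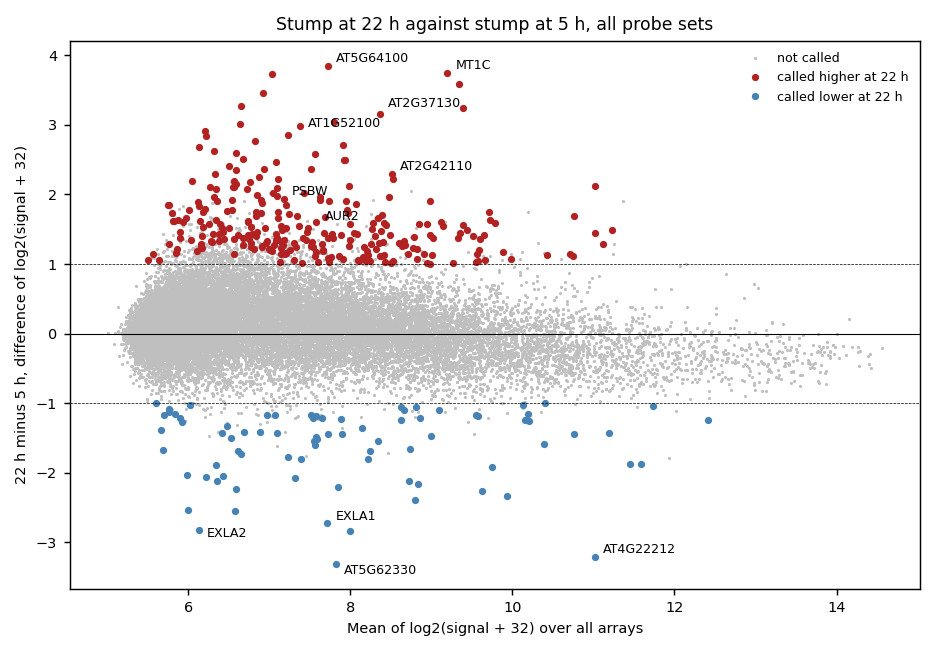
Difference between stump at 22 h and at 5 h against the mean over all 30 arrays, both on the log2(signal + 32) scale, with 1 point for each of 22746 probe sets. Red points are the 265 called higher, blue points the 80 called lower and grey points those not called, with dashed lines at differences of 1 and -1. Called risers outnumber called fallers, and the brightest probe sets lie mostly below 0.

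The 15 largest falls and 15 largest rises named were required to have no overlap between groups and a higher group mean above 94.8. Their separation is therefore no separate result. The high 5 h signals of the fallers follow in part from that bound and from the scale. AT4G22212, which encodes a defensin-like peptide of the kind secreted by plant cells, had signals of 10150.2, 10052, 11514 and 15396 in the 5 h arrays, in the order of their replicate numbers. At 22 h they were 916, 2095, 849.5, 792 and 2165, a difference of -3.20 ± 0.29, adjusted p = 1.11e-08. Every 22 h array lay far below every 5 h array, and the 13 h arrays, at 2406, 2459, 3830.4 and 1808, overlapped the 22 h arrays and not the 5 h arrays. The signals of AT5G62330, a gene with no description in the sources used here, were 857, 1214, 524 and 887 at 5 h and 52.9, 67.7, 79.1, 13.3 and 90.7 at 22 h (-3.30 ± 0.30, adjusted p = 1.11e-08). Its 13 h signals of 392, 232, 259 and 163 fell between the groups and overlapped neither.

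Expansin-like proteins are small secreted proteins related to the expansins that loosen cell walls, and both called members of this subfamily fell. EXLA2 (AT4G38400) stood at 277, 293, 272 and 295 at 5 h and at 4.2, 5.9, 39.5, 9.9 and 12.1 at 22 h (-2.82 ± 0.32, adjusted p = 1.63e-06). EXLA1 (AT3G45970) stood at 771, 1034, 1387 and 2010.3 and then at 113, 359.7, 327, 39.8 and 137 (-2.72 ± 0.47, adjusted p = 0.000885). The 5 h arrays of EXLA2 were nearly alike and those of EXLA1 spread widely, and in neither gene did the groups overlap. EXLA3 (AT3G45960) was not called, with 50.5, 17.4, 121 and 236 at 5 h and 13.8, 13.1, 21.2, 48.2 and 14.9 at 22 h (-1.10 ± 0.32, adjusted p = 0.0715). Of 19 expansin-family probe sets, 2 were called lower and 1 higher, with a median difference of 0.36 against 0.09 for all probe sets.

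Among the other large falls were genes of stress and redox biology. AT5G22580, which encodes a stress-responsive A/B barrel protein, stood at 9516, 9345, 8741 and 11236 at 5 h and at 2324, 1359.6, 3436, 1733 and 1676 at 22 h (-2.26 ± 0.31, adjusted p = 4.25e-05). MSRB9 (AT4G21850), a methionine sulfoxide reductase, an enzyme class that repairs oxidised methionine in proteins, went from 7021, 5541, 6574 and 7659 to 1323, 1740.2, 1849, 1608 and 2696 (-1.87 ± 0.23, adjusted p = 5.49e-06). AT5G39580, a class III peroxidase, went from 759, 902, 1329.8 and 1363 to 143, 646, 316, 56.7 and 280.2 (-2.08 ± 0.39, adjusted p = 0.00276). The 22 h arrays of all these genes lay below every 5 h array, although the peroxidase was uneven at 22 h, lowest in array 4 and highest in array 2. AT2G32190, a gene not described further here, stood at 341, 295, 466 and 489 at 5 h and at 36.8, 53.0, 44.7, 30.0 and 43.4 at 22 h (-2.53 ± 0.28, adjusted p = 7.31e-07), with no overlap. AT4G15010, likewise, went from 129, 275, 307 and 228 to 38.6, 90.2, 22.9, 35.8 and 102 (-1.60 ± 0.33, adjusted p = 0.00612), also with no overlap. The dehydrin AT4G38410, of a protein family that accumulates under water loss and cold, fell from between 1874 and 2482 to between 355 and 584 (-2.11 ± 0.37, adjusted p = 0.00116). A low-temperature-responsive family member, AT4G30650, was at 5664, 5144, 7797 and 10769 at 5 h and 1165, 2999, 3936, 1459.5 and 1028 at 22 h (-1.92 ± 0.47, adjusted p = 0.0245), with no overlap but with its call lost in 6 of the alternatives tried. Among 21 probe sets of dehydrins, LEA proteins (made late in embryo development) and cold-responsive proteins, 2 were called lower and 1 higher, and the median was -0.05.

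Transcription regulators were among the fallers. AT5G61890, a member of the ERF family that carries ethylene and wound responses, stood at 1059.6, 885, 889 and 871 at 5 h and at 295, 275, 529, 141 and 126 at 22 h (-1.80 ± 0.42, adjusted p = 0.0176). AT5G01380, a trihelix DNA-binding factor, went from 169.9, 450.4, 509 and 356 to 32, 11.7, 137, 46.6 and 106 (-2.11 ± 0.40, adjusted p = 0.00234). AT2G22880, which encodes a VQ-motif protein, a class that binds WRKY factors, went from 344, 449, 513 and 1018 to 63.8, 256, 210.4, 18.0 and 115 (-2.04 ± 0.39, adjusted p = 0.00263). In all 3 genes the groups were separate, with the nearest approach in AT5G01380, whose highest 22 h array lay just under its lowest 5 h array. Of 5 wound and stress regulators measured, 1 was called, the ERF, and the median was -0.87. STZ (AT1G27730), a zinc-finger repressor of stress responses, was not called at 457, 463, 425 and 428 against 158, 121, 298, 282 and 159.5 (-1.08 ± 0.34, adjusted p = 0.108), although its groups did not overlap. WRKY47 (AT4G01720), of the WRKY family, rose instead, from 40.6, 53.9, 45.8 and 52.0 to 166, 139, 212, 215 and 179 (1.41 ± 0.30, adjusted p = 0.00685), and it was the 1 called of 7 WRKY probe sets.

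Some inhibitors of pectin methylesterase, the enzyme that demethylates wall pectin, also fell: 3 of 16 probe sets of this family were called lower and 0 higher. AT4G25260 had 703, 838, 769 and 1359 at 5 h and 209, 231, 153, 433 and 358 at 22 h (-1.65 ± 0.25, adjusted p = 0.000163). AT5G62340 had 6577, 7089, 5731 and 6783 and 3945, 1058, 1916, 3467 and 5676 (-1.23 ± 0.31, adjusted p = 0.0295), and AT3G47380 had a difference of -1.06 ± 0.25, adjusted p = 0.0169. The groups were separate in each of these genes, the closest being AT5G62340, where 22 h array 5 almost reached the lowest 5 h array. The call of AT5G62340 was lost in 9 alternatives, among them each 5 h array left out in turn, and that of AT3G47380 in 6. The family's median was 0.12, and -0.04 and -0.08 after quantile normalization and median centring, and 9 of its 16 probe sets were positive on the scale used throughout. CRT1b (AT1G09210), a calreticulin that folds proteins in the endoplasmic reticulum, was at 5351, 5433, 6100.4 and 4664 and then 1459, 2864, 2555, 3028 and 3676 (-1.03 ± 0.25, adjusted p = 0.0207), and its call was lost in 8 alternatives. It was the 1 called of 16 heat shock proteins and chaperones, whose median was -0.49 with 14 of 16 negative. The brightest probe sets as a class, with a mean log2(signal + 32) of 10 and over, were also lower, as given above. The median of these means for the chaperone list was 7.84. Among all probe sets with a mean of 7 to 10, the median difference was 0.07 and 56.9% were positive.

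**Figure D2:**
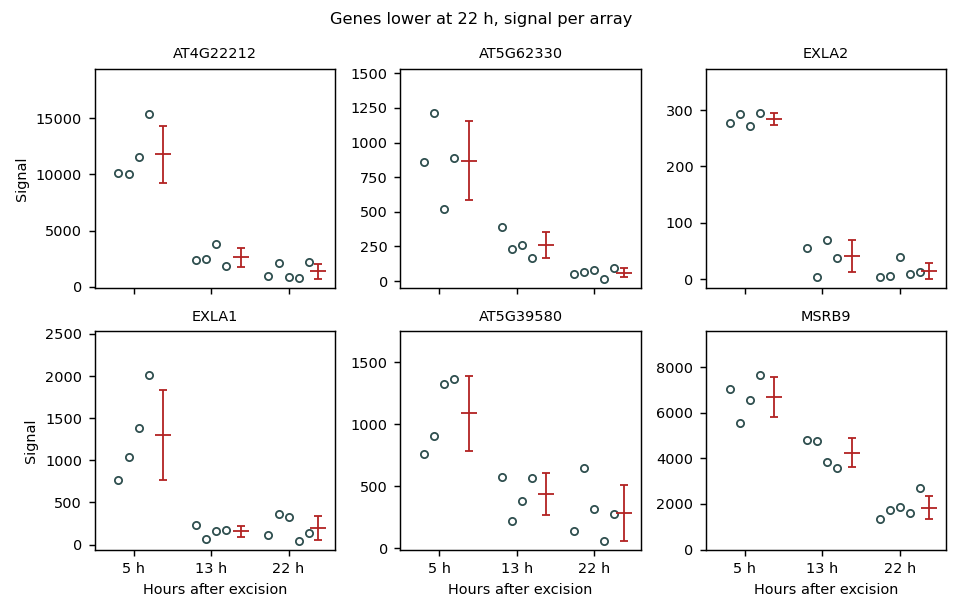
Signal in each array (open circles, in replicate order) of 6 genes called lower at 22 h, for the stump at 5, 13 and 22 h after excision (n = 4, 4 and 5). Red bars are the mean and its SD over the arrays of a group. In all 6 panels the 22 h circles lie below the 5 h circles, which the rule that named these genes required.

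At 0 h many of the fallers were lower than at either later time. Of the 80 probe sets called lower, the 0 h mean lay below both the 5 h and the 22 h mean in 42, between them in 38 and above both in 0. These counts reuse the 5 h and 22 h arrays that chose the probe sets and are given as a description. AT5G22580 averaged 103 ± 88.0 (SD, n = 4) at 0 h, far under both later levels. AT4G38410 averaged 121 ± 96.9 (SD, n = 4) at 0 h and EXLA2 averaged 7.7 ± 3.5 (SD, n = 4). MSRB9 differed, at 4032 ± 1573 (SD, n = 4) at 0 h, between its 5 h and 22 h levels. AT5G62330 also lay between them, at 596 ± 245 (SD, n = 4), and its highest mean of all 8 groups, 1589 ± 222 (SD, n = 3), was in the section harvested immediately.

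Several genes of cell division rose. AUR2 (AT2G25880) and AUR1 (AT4G32830) encode Aurora kinases, which act at the spindle and the forming cell plate. AUR2 stood at 126, 79.6, 162 and 168 at 5 h and at 578, 323, 438, 448 and 518 at 22 h (1.59 ± 0.24, adjusted p = 0.000153), with no overlap. AUR1 stood at 562, 488, 314 and 297 and at 1566, 500.5, 895, 883 and 1334 (1.20 ± 0.28, adjusted p = 0.0173), with 22 h array 2 inside the 5 h range, and its call was lost in 5 alternatives. Of 9 probe sets for regulators of the G2 phase and mitosis, these 2 were called, 8 of 9 were positive and the median was 1.04, or 0.84 after median centring. Over all probe sets, 1.17% were called higher and 13579 of 22746 were positive. UBC20 (AT1G50490), a ubiquitin-conjugating enzyme of the mitotic kind picked after its values were seen, was called at 1285, 1304, 691 and 911 against 2851, 1249, 1846, 3137 and 2662 (1.11 ± 0.27, adjusted p = 0.0222), with overlap in array 2 and the call lost in 6 alternatives. The chromatin protein 3xHMG-box2 (AT4G23800), which sits on mitotic chromosomes, was not called (1.12 ± 0.32, adjusted p = 0.0715). Smaller differences in the same list were those of 3xHMG-box1 (AT4G11080) at 0.39 and BUBR1 (AT2G33560) at 0.12 (adjusted p = 0.525 and 0.915). The third Aurora gene, AUR3 (AT2G45490), differed by 0.02 (adjusted p = 0.979).

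Kinesins are motor proteins that move along microtubules, and 3 of 42 probe sets were called higher and 0 lower, with a median of 0.31. This list shares AT4G14330, KINESIN-12B (AT3G23670) and KINESIN-13A (AT3G16630), none of them called, with the mitosis list. KINESIN-12B, at 1.04, is the median of the mitosis list. AT2G28620, of the spindle kinesin class, stood at 165, 86.7, 153 and 28.8 at 5 h and at 863, 215, 379, 383 and 326 at 22 h (1.73 ± 0.34, adjusted p = 0.00415). AT3G44050 went from 133, 95.8, 102 and 32.7 to 282, 173, 236, 219.9 and 281 (1.20 ± 0.26, adjusted p = 0.00847). AT2G37420 went from 62.0, 53.5, 50.9 and 13.4 to 129, 145, 137, 131 and 119 (1.15 ± 0.27, adjusted p = 0.0188). Calls were lost in 1, 4 and 7 alternatives in turn. The groups were separate in all 3, and 5 h array 4 was the lowest array each time, as it was for the uncharacterised genes AT2G42110 and AT4G02800. AT2G42110 stood at 128, 123, 109.6 and 15.5 and 1252, 352, 471, 436 and 432 (2.29 ± 0.40, adjusted p = 0.000976), highest in 22 h array 1, as AT2G28620 was. AT4G02800 stood at 107, 116, 107 and 18.5 and 563, 264, 558, 471 and 438 (2.12 ± 0.32, adjusted p = 0.000153). The 5 histones measured, of which not all are core histones, and the 7 tubulins had no called member in limma, with 1 in each list at an unadjusted p under 0.05. Their medians were -0.30 and -0.35, and the tubulin list held no actin.

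The same genes were read in tissue with an intact meristem. The mean of AUR2 was 472 ± 35.6 (SD, n = 3) in the tip at 8 dpg and 62.7 ± 18.9 (SD, n = 3) in the section. For AT2G42110 these means were 712 ± 242 and 60.1 ± 13.3 (SD, n = 3 each). The 22 h stump lay nearer to the tip than to the section in both genes. That tip is 8 dpg, where the stump is 4 dpg. In the 4 dpg tip, AUR2 averaged 306 ± 97.9 and AT2G42110 averaged 497 ± 234 (SD, n = 4 each). The 0 h stump, with means of 289.6 and 571, was already above the section.

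Nuclear genes for photosynthesis were among the risers in this root tissue. Of 19 such probe sets, 8 were called higher and 0 lower and 17 were positive, against 1.17%, 0.352% and 13579 of 22746 for all probe sets. The median was 1.03, or 0.88 and 0.83 after quantile normalization and median centring. PSBW (AT2G30570), a small subunit of photosystem II, stood at 61.4, 42.5, 57.5 and 51.4 at 5 h and at 276, 328, 397, 156 and 378 at 22 h (1.94 ± 0.35, adjusted p = 0.00158). ATPC1 (AT4G04640), the gamma subunit of the chloroplast ATP synthase, went from 103, 97.3, 42.7 and 55.7 to 253, 503, 305, 256 and 235 (1.68 ± 0.30, adjusted p = 0.0014). AT2G26500, a small subunit of the cytochrome b6f complex, went from 72.5, 26.0, 52.5 and 70.2 to 124, 473, 320.3, 162 and 285 (1.72 ± 0.31, adjusted p = 0.00145). The groups did not overlap in any of these 3 genes, and 13 h arrays were already above the 5 h arrays in each. CHLM (AT4G25080), a methyltransferase of chlorophyll synthesis, rose by 1.45 ± 0.24 and AT4G01150, a thylakoid membrane protein, by 1.13 ± 0.22 (SE; adjusted p = 0.000574 and 0.00284). The remaining called members were PSBY, AT1G52220 and LHCB4.1, with differences of 1.41, 1.51 and 1.36, each lost in 9 or more alternatives. The 69 plastid-encoded probe sets had 0 called in limma, 8 at an unadjusted p under 0.05 and a median of 0.18, or -0.02 after median centring. AT1G54500, a rubredoxin-like gene outside the list, stood at 124, 76.3, 23.4 and 20.3 and 327, 278, 405, 239 and 302 (2.02 ± 0.35, adjusted p = 0.000885), again without overlap.

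**Figure D3:**
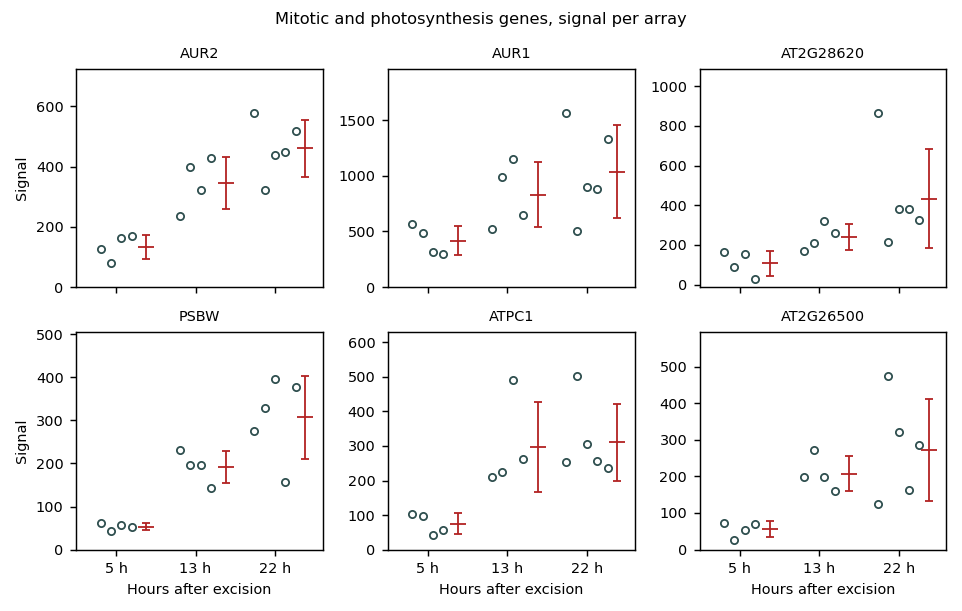
Signal in each array (open circles, in replicate order) of 3 mitotic genes (AUR2, AUR1 and the kinesin AT2G28620) and 3 photosynthesis genes (PSBW, ATPC1 and AT2G26500), at 5, 13 and 22 h after excision (n = 4, 4 and 5), with the mean and SD of each group in red. All but AUR1 have every 22 h circle above every 5 h circle.

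The risers were seldom at their lowest at 0 h. Of the 265, the 0 h mean lay between the 5 h and 22 h means in 218, below both in 31 and above both in 16, again with the 5 h and 22 h arrays that chose them. In all 13 called members of the mitosis, kinesin and photosynthesis lists, the 0 h mean was above the 5 h mean. These 13 were chosen as low at 5 h, and the counts above give the same order in most of the 265 risers. The 0 h arrays 1 and 2 had median signals of 141.8 and 121.3, against 77.0 to 89.1 at 5 h. The part of this in the 0 h levels was not tested. CHLM averaged 245 ± 50.6 (SD, n = 4) at 0 h, 73.3 ± 32.7 (SD, n = 4) at 5 h and 245 ± 29.4 (SD, n = 5) at 22 h. AUR2 averaged 289.6 ± 92.1 (SD, n = 4), 134 ± 40.7 and 461 ± 95.9 at these times. AT2G42110 averaged 571 ± 526 at 0 h, with a spread nearly as wide as its mean, and 588 ± 373 at 22 h. The 0 h and 22 h means of CHLM were nearly equal with the 5 h mean far below, and the mean of AUR2 was higher at 22 h than at 0 h, a difference not tested here.

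Among the largest rises were genes of secreted and wall-acting proteins, and these were uneven among the 22 h arrays. Class III peroxidases are secreted enzymes that cross-link or loosen cell walls, and of 55 probe sets 5 were called higher and 1 lower, with 46 positive and a median of 0.38. For all probe sets the shares were 1.17% higher, 0.352% lower and 13579 of 22746 positive. AT5G64100 had signals of 82.9, 10.7, 17.8 and 80.1 at 5 h and 435, 3891, 2240.3, 482 and 545 at 22 h (3.85 ± 0.53, adjusted p = 4.52e-05). AT2G37130 had 115, 62.3, 219 and 269 and 581, 5575, 4592, 842 and 745 (3.16 ± 0.69, adjusted p = 0.00987). AT1G30870 had 11.9, 8.1, 7.9 and 12.2 and 199.8, 1171, 924, 22.4 and 67.6 (2.69 ± 0.63, adjusted p = 0.0188). The groups were separate in each gene, and 22 h arrays 2 and 3 stood several times above arrays 1, 4 and 5. AT5G17820 was called with overlap, at 7.0, 6.9, 17.6 and 66.1 against 59.5, 2051, 731, 45.5 and 167 (2.50 ± 0.59, adjusted p = 0.0188). The fifth, AT5G15180, differed by 1.61 ± 0.31, adjusted p = 0.00276.

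Dirigent proteins guide the coupling of phenolic radicals in lignan and lignin chemistry, and all 15 probe sets of the family were positive, 3 of them called. Their median of 0.26 fell to 0.09 and 0.06 under quantile normalization and median centring. Both this list and the peroxidases are dim, with median means of log2(signal + 32) of 6.16 and 6.33. Among all probe sets with a mean under 7, 66.4% were positive. AT4G13580 had 4.9, 5.9, 52.5 and 9.0 at 5 h and 149.5, 1207, 880.0, 56.0 and 207 at 22 h (2.84 ± 0.60, adjusted p = 0.00707). AT2G21100 had 40.5, 42.5, 6.2 and 65.8 and 238, 813, 472, 98.4 and 87.6 (2.07 ± 0.49, adjusted p = 0.0188). AT2G39430 was called too (1.77 ± 0.47, adjusted p = 0.043), with overlap and with the call lost in 11 alternatives. Again arrays 2 and 3 were the highest of the 22 h group in all 3 genes.

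The same arrays were high for further genes. MT1C (AT1G07610), a metallothionein, a small metal-binding protein, stood at 47.3, 52.1, 81.7 and 334 at 5 h and 1436, 7447, 4132, 255 and 1151 at 22 h (3.74 ± 0.71, adjusted p = 0.00284), with 22 h array 4 inside the 5 h range. LCR69 (AT2G02100), a defensin-like peptide, stood at 718, 734, 632 and 825 and 1243, 8394, 4865, 1437 and 1162 (1.71 ± 0.41, adjusted p = 0.0225), with no overlap, although the call was lost in 10 alternatives. ATG8F (AT4G16520), a membrane tag of autophagy, stood at 396, 404, 339 and 377 and 680.1, 2523, 1909.5, 825 and 931 (1.59 ± 0.28, adjusted p = 0.00134). It was the 1 called of 10 autophagy probe sets, all positive, with a median of 0.61. EXPA8 (AT2G40610), a wall-loosening expansin, stood at 9.1, 52.7, 8.7 and 50.1 and 189, 1252, 177, 184 and 189 (2.41 ± 0.41, adjusted p = 0.000885), with array 2 far above the other 4. ARPN (AT2G02850), a plantacyanin or blue copper protein, AT3G18280, a lipid-transfer-type protein, and AT3G57020, a strictosidine synthase-like protein, rose by 2.20, 2.25 and 2.50 (adjusted p = 0.0174, 0.00507 and 0.00932), each highest in 22 h array 2 and next highest in array 3. AT4G17215, uncharacterised, rose by 2.19 (adjusted p = 0.0128) with the same order.

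Over all 265 risers, array 2 was the highest of the 22 h arrays for 122, array 1 for 66, array 3 for 36, array 5 for 29 and array 4 for 12. Among the 13 h arrays, array 1 was the highest for 120 of the 265. Without 22 h arrays 2 and 3, an alternative chosen after the values were seen, 225 probe sets were called, 153 higher and 72 lower. The calls of AT2G37130, AT1G30870, AT5G17820, AT4G13580, AT2G21100, AT2G39430, MT1C, LCR69, ARPN, AT3G18280, AT3G57020 and AT4G17215 were then lost, with smaller differences in each: AT5G17820 was at 1.11 in place of 2.50 and MT1C at 2.62 in place of 3.74. Calls were also lost where the difference itself hardly moved, in AT2G37420 (1.10 from 1.15), LHCB4.1 (1.38 from 1.36), scpl48 (1.39 from 1.42) and CRT1b (-1.07 from -1.03), with 3 arrays left at 22 h. PSBY and AT1G52220 were lost at 1.27 and 1.25, and the fallers AT3G47380 and AT5G62340 at -0.83 and -0.61. AT5G64100, EXPA8 and ATG8F kept theirs, as did every gene named above among the 15 largest falls, AUR2, AT2G28620, PSBW, ATPC1 and AT2G26500. The root hair list, of which 3 probe sets were measured, was uneven in the same way: EXPA7 (AT1G12560) stood at 49.6, 39.9, 9.9 and 11.2 at 5 h and 46.2, 705, 587, 75.9 and 85.6 at 22 h (1.91 ± 0.56, adjusted p = 0.0749) and EXPA18 (AT1G62980) differed by 1.87 ± 0.51, adjusted p = 0.0511. The summed signal of the 3 probe sets ran from 35 to 77 at 5 h and from 143 to 2477 at 22 h. Neither EXPA gene was called, both had their highest signals in 22 h arrays 2 and 3, and the third member is the called peroxidase AT1G30870. Whether the share of root hair cells played a part in the uneven rises was not tested.

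**Figure D4:**
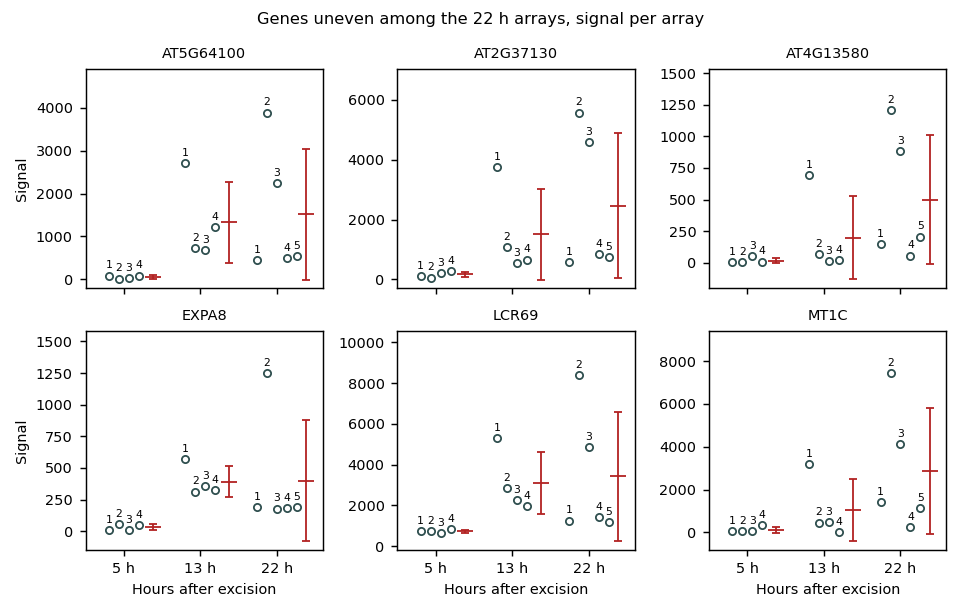
Signal in each array of 6 genes called higher at 22 h, with the replicate number printed above each circle and the mean and SD of each group in red, for stumps at 5, 13 and 22 h (n = 4, 4 and 5). Array 2 of the 22 h group is the highest circle in all 6 panels, and array 1 is the highest of the 13 h group.

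Some other rises were more even among the 22 h arrays. AT1G52100, a jacalin-type lectin, a sugar-binding protein, stood at 45.2, 88.2, 80.4 and 13.9 at 5 h and 575, 344, 578, 947 and 892 at 22 h (2.99 ± 0.37, adjusted p = 7.38e-06). JAL33 (AT3G16450), of the same family, stood at 1516, 942, 838 and 798 and 2641, 3302, 2563, 3795 and 4315 (1.69 ± 0.25, adjusted p = 9.15e-05). Both were separate, and in neither was array 2 the highest. Of 19 jacalin-type lectin probe sets, 3 were called higher and 0 lower, and the median was 0.11, or -0.08 after median centring. The third call, JAL22 (AT2G39310), had overlapping groups (1.54 ± 0.38, adjusted p = 0.0261) and was lost in 10 alternatives. AT2G25980 fell without overlap (-0.94 ± 0.25, adjusted p = 0.0381) but missed the size threshold. AT3G18250, uncharacterised, stood at 8.7, 11.9, 42.3 and 88.3 and 198, 399.8, 183, 169 and 279 (2.07 ± 0.35, adjusted p = 0.000721). Of 24 pectate lyases, which cut wall pectin, 3 were called higher, led by AT3G53190 at 1769, 1216, 1220.4 and 1018 against 2944, 2161, 3676, 2581 and 3145 (1.14 ± 0.20, adjusted p = 0.00108), a call lost after median centring. The other called pectate lyases, AT3G27400 and AT4G13210, differed by 1.47 and 1.44 with overlapping groups, and their calls were lost in 10 and 14 alternatives. AT3G27400 was uneven, highest in 22 h arrays 2 and 3 (720.5 and 430.8, others 92.5 to 175.6), and its difference was 0.75 without them. AT4G13210 ran from 90.3 to 509.2 at 22 h. IAA33 (AT5G57420), an Aux/IAA repressor of auxin signalling, rose from 131, 119.6, 95.4 and 177 to 393, 350.2, 339.8, 330.5 and 540.3 (1.38 ± 0.28, adjusted p = 0.00502), the 1 called of 8 auxin genes. CLE44 (AT4G13195), the precursor of a peptide that holds vascular stem cells undifferentiated, was picked after its values were seen and stood at 10.4, 66.3, 74.8 and 6.7 and 266, 157, 314, 206 and 156 (1.92 ± 0.39, adjusted p = 0.00458), separate between the groups.

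Regulators of the stem cell niche were sparsely measured, and 0 of 3 were called in limma, with 1 at an unadjusted p under 0.05. JKD (AT5G03150), a zinc-finger partner of the patterning factors around the niche, stood at 90.1, 10.6, 18.6 and 11.1 at 5 h and 263, 91.6, 28.6, 81.3 and 117 at 22 h (1.17 ± 0.41, adjusted p = 0.155). AGL42 (AT5G62165), a MADS-box gene used as a quiescent centre marker, stood at 64.5, 114, 108 and 73.4 and 203, 154, 119, 83.1 and 109 (0.42 ± 0.39, adjusted p = 0.681). BBM (AT5G17430), an AP2-type factor of the meristem, stood at 182, 124, 166 and 118 and 148, 50.5, 180.1, 65.4 and 164 (-0.31 ± 0.35, adjusted p = 0.749). The groups overlapped in all 3 genes. SIM (AT5G04470), an inhibitor of cyclin-dependent kinases that favours endoreduplication, stood at 602, 147, 165 and 242 and 427, 563, 529, 294 and 247 (0.61 ± 0.48, adjusted p = 0.615), also with overlap. CR4 (AT3G59420), the 1 root cap gene measured, stayed between 8.3 and 18.8 in all 9 arrays, and LHW (AT2G27230), of the vascular list, differed by 0.11 ± 0.21, adjusted p = 0.873. Among genes high in the 8 dpg tip and picked after their values were seen, AT1G23160 had signals of 18.1, 9.5, 4.0 and 4.1 and then 299, 29.3, 18.1, 129 and 249.7 (1.74 ± 0.42, adjusted p = 0.0222), and scpl48 (AT3G45010) had 49.0, 226, 236 and 204 and 616, 684, 349.8, 324 and 508 (1.42 ± 0.34, adjusted p = 0.0221). AT1G23160 was called although only 22 h arrays 1, 4 and 5 were well above the 5 h arrays, and both calls were lost in 8 alternatives.

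The gene lists are compared in the plot of list members. The detoxification list, the largest with 79 probe sets, had 0 called members in limma, 12 at an unadjusted p under 0.05 and a median of 0.08, close to the 0.09 of all probe sets. The 10 xyloglucan endotransglucosylases, enzymes that cut and rejoin wall xyloglucan, also had 0 called in limma, 0 at an unadjusted p under 0.05 and a median of 0.09. Of 16 defensins, chitinases and protease inhibitors, LCR69 alone was called, and the median was 0.16, or -0.04 after median centring. The list did not include the defensin-like gene AT4G22212, which was called lower (-3.20).

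**Figure D5:**
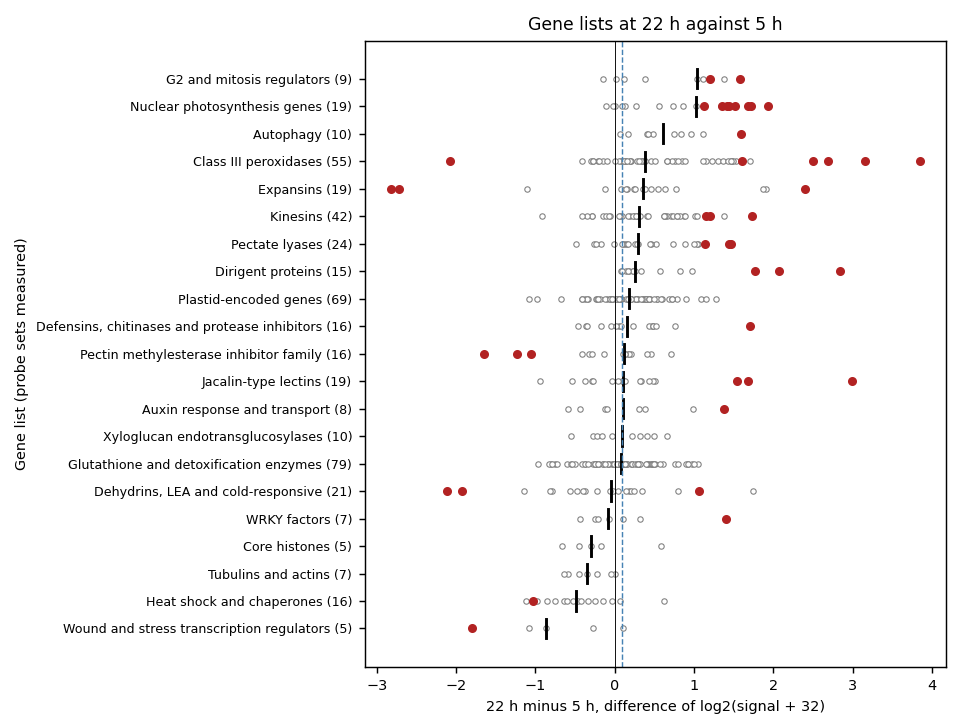
Difference between stump at 22 h and at 5 h on the log2(signal + 32) scale for each member of the lists with at least 5 probe sets measured (number in brackets). Filled red circles are called members, open circles are not called, black ticks are list medians and the dashed line is the median of all probe sets. Mitosis regulators and nuclear photosynthesis genes have the highest medians, 1.04 and 1.03, and wound and stress regulators the lowest, -0.87. The list headed tubulins and actins holds tubulins only, and the list headed core histones holds other histones too.

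At 13 h most of the called probe sets stood between the other times. Over the 265 risers, the median difference was 0.97 from 5 to 13 h and 0.47 from 13 to 22 h, and over the 80 fallers -1.02 and -0.44. These comparisons share arrays with the one that chose the probe sets, so the values are set side by side as a description. The 13 h mean lay between the others in 233 of 265 risers and 68 of 80 fallers. Tested on its own, 13 h against 5 h gave 85 called probe sets (0.374%), 52 higher and 33 lower (0.229% and 0.145%), with 38 to 85 when 1 array was left out. The step from 13 to 22 h gave 4 called (0.0176%), 2 higher and 2 lower (0.00879% each), and 22 without 22 h arrays 2 and 3. Lower among the 4 were AT5G62330 and MSRB9, with 22 h minus 13 h differences of -1.68 ± 0.30 and -1.22 ± 0.23 (SE; adjusted p = 0.0238 and 0.0372). AT3G23880, an F-box-type gene chosen after its values were seen, rose from 164, 238, 201 and 229.5 at 13 h to 1148, 761, 508, 622 and 782 at 22 h, a difference of 1.69 ± 0.25 (SE; adjusted p = 0.0023). Its 5 h signals were 317, 119.8, 299 and 242, so the 5 h and 13 h arrays overlapped and every 22 h array lay above both. The fourth probe set has no gene name here and averaged 21.2 at 13 h and 107.9 at 22 h (1.41 ± 0.25, SE; adjusted p = 0.0238).

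The called probe sets were then read in the intact tip at 8 dpg and the section, arrays outside the 22 h and 5 h groups that do enter the shared estimate of the spread. Of the 265 risers, 92 (34.7%) were called higher in the tip than in the section and 26 (9.81%) lower, with a median difference of 0.35. Over all 22746 probe sets, 9.93% were called higher in the tip and 7.33% lower, with a median of 0.05. Of the 80 fallers, 11 (13.8%) were called higher in the tip and 16 (20.0%) lower, with a median of -0.02. The called probe sets are brighter than most, with a median signal of 180.7 for the risers and 275.0 for the fallers against 94.8 for all. The part of brightness in these shares was not tested. With the probe sets chosen by a fit of the 9 stump arrays alone and read in a fit of the 6 tip and section arrays alone, an alternative added after the data were seen, 31 of 73 risers (42.5%) were called higher in the tip and 10 (13.7%) lower. Of the 43 fallers in those fits, 5 (11.6%) were called higher and 13 (30.2%) lower, against 11.1% and 8.38% of all probe sets. MT1C was among the genes with high tip signals, 4108 ± 230.4 in the tip and 16.8 ± 17.0 in the section (SD, n = 3 each). AT2G37130 had the reverse order, 14.4 ± 9.7 in the tip and 1990.2 ± 668 in the section (SD, n = 3 each).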

How the data were processed

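Gene expression was measured on 30 ATH1 arrays in 8 groups. The authors deposited 1 intensity per probe set and array, processed with MAS5 per the submitters' processing notes, of unstated version. Means trimmed by 2% were 246.5 to 248.6 over the arrays, so the deposited intensities were taken as scaled and were not scaled again. The number of arrays, with no read depth, limits the precision. Signals were transformed as log2(signal + 32). A linear model with 1 coefficient per group was fitted to all 30 arrays in limma (version 3.58.1, R version 4.3.3) with a mean-variance trend in eBayes, and the groups share 1 estimate of the spread. Benjamini-Hochberg adjustment ran over 22746 probe sets in each of 4 comparisons, and the fit was tested on simulated data.

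Of the probe sets, 13513 had 1 gene in the platform annotation, 503 had several and 8730 had none. Of the first, 13436 matched RefSeq (assembly TAIR10.1, used for names only). The array groups came from the titles. The members, the 36 gene lists, the tests and the naming rule were chosen with earlier results of these data known, and loci were added to the lists by hand once the names were at hand. The rule names the 15 largest rises and 15 largest falls among called probe sets with 1 gene, no overlap and a higher group mean above 94.8. It adds up to 6 called members of each list by p, and every member of the niche and endoreduplication lists. Genes of the lists that are not called, and those said to be picked after their values were seen, were added. Alternatives were pseudocounts of 1 and 64, median centring, quantile normalization, no variance trend, a table without its 40% dimmest probe sets, only the groups compared, no 0 h arrays, a replicate block, array weights and each array left out in turn. Leaving out the 4 arrays with a median signal above 120, or 22 h arrays 2 and 3, was chosen after the data were seen. Those 4 are 0 h arrays 1 and 2, 22 h array 1 and array 1 of the 4 dpg tip. Scanner information files hold no signals and were not used here. Plots were drawn with matplotlib 3.10.9.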

Additional observations from a re-analysis of the deposited data

Results flagged for a closer look

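Among the genes named above, 148 sets of 4 or 5 arrays were screened for an array far from the rest by Dixon's criterion, which chance meets about 1 time in 20, and 12 met it. At 22 h, array 2 gave EXPA8 a signal of 1252.2 where the other arrays spanned 177.4 to 189.2. Array 1 gave AT2G42110 a signal of 1251.5 (others 351.7 to 471.2) and 3xHMG-box2, a protein of mitotic chromosomes, 2073.6 (others 696.1 to 909.7). Array 4 gave EXLA3 a signal of 48.2 (others 13.1 to 21.2).

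At 5 h, array 4 was low for AT2G42110 at 15.5 (others 109.6 to 128.0), for AT4G02800 at 18.5 (others 106.7 to 116.3) and for the pectate lyase AT3G27400 at 27.1 (others 86.5 to 93.3). Array 1 was low for scpl48 at 49.0 (others 204.1 to 236.4). It was high for AT4G01150 at 379.7 (others 253.8 to 257.3), for JKD at 90.1 (others 10.6 to 18.6) and for AT5G61890 at 1059.6 (others 870.8 to 889.1). Array 3 was high for AT4G13580 at 52.5 (others 4.9 to 9.0).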

How the results depend on the processing

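Against 345 called between 22 h and 5 h, fitting only those groups gave 116, leaving out the 4 arrays of high median signal gave 537 and leaving out 22 h arrays 2 and 3 gave 225. Leaving out 1 array gave 204 to 462. The other alternatives stayed within 1.5 times of 345, except the replicate block and the fits without 5 h array 3 (218) or 5 h array 4 (204). Between 22 h and 13 h, median centring gave 1 against 4, omission of 22 h arrays 2 and 3 gave 22, and 1 array left out gave 1 to 10. The fit of only those groups in limma gave 0, with 1135 at an unadjusted p under 0.05. Between 13 h and 5 h, the 85 became 151 with only those groups, 139 with array weights, 186 without the 4 arrays and 38 to 85 with 1 array left out. The causes were not tested. The replicate block gave 549 in place of 345. In their deviations from the group means, same-numbered arrays correlated at -0.145 to 0.238 over 12 pairs of arrays. Differently numbered arrays correlated at -0.275 to 0.306, so the numbers were not taken to pair the arrays. Of 69 called genes examined singly, 28 kept their call in every alternative that tested them and 0 reversed. Leaving out the dimmest probe sets removed 11 of the 69, 4 of those 28 among them. Signals near the pseudocount carry little information on the size of a change.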
